A study of Drosophila melanogaster with 6 samples.

Results

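The 9 genes described here, tj, eya, so, ptc, spi, stet, Egfr, rl and aos, are regulators of the somatic cyst cells of the Drosophila melanogaster testis or carry the Epidermal Growth Factor Receptor (EGFR) signal that passes from germ cells to cyst cells. They were chosen by name, and all 9 were found among the 11491 genes of the deposited expression table. The testes of adult males were sequenced whole after poly(A) selection, in 3 libraries for each of the groups, Zeus KO and a control injection line that the labels call WT. Zeus, listed as Rcd-1r, is a retrogene copy of Caf40, listed as Rcd-1, a subunit of the CCR4-NOT complex that removes poly(A) tails from mRNAs. Zeus KO carries small frameshift deletions in the Zeus coding sequence made with CRISPR-Cas9, and the methods name knockout lines in the plural without saying which line gave which library. Both groups come from strain BDSC #25710. That strain carries a nos-driven phiC31 integrase on the X, mutant alleles of y (y[1]), sc (sc[1]), v (v[1]) and sev (sev[21]), and the attP2 landing site. The methods name it for the injected embryos and do not give the genotype of the final lines. The sev gene encodes a receptor tyrosine kinase that feeds the Ras/MAPK cascade in the eye, and its allele belongs to the starting strain of both groups. Flies were kept at 25 °C, their ages are not given beyond adult, and each replicate was stored in PBS for a period of 1 to 2 days.

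In the testis, germ cells divide and differentiate inside an envelope of somatic cyst cells, which descend from cyst stem cells beside the hub. Germ cells release an EGF-like ligand, which is activated by a protease of the rhomboid family, and the receptor on cyst cells relays it through Ras and the MAP kinase to the nucleus. This signal is known to drive the cyst cells to enclose the germ cells, and without it germ cells fail to differentiate properly. Cyst cell identity is set by transcription factors of early and later cyst cells, and early cyst cells also respond to Hedgehog from the hub.

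Values are normalized reads, that is, reads of a gene divided by the library's size factor. The deposited table gives only the mean of each group, from which the whole reads behind each library were recovered by calculation. The libraries of a group are lettered A, B and C by falling size factor. The letters join no control library to a Zeus KO library and are not the replicate numbers of the labels. The labels do not say that replicates came from separate flies, though the methods call them biological triplicates. The solved libraries held between 7333614 and 10960507 reads on genes, and the read files held between 12533272 and 18846182 sequenced reads. Zeus itself held 319, 338 and 380 normalized reads in control, against 269.0, 268.8 and 328 in Zeus KO. The groups overlapped, and reads from a frameshift allele are still counted, so this does not test the knockout. Caf40 had 2644 to 3126 normalized reads in the control libraries, against 2588 to 2984 with the knockout. A gene was called when limma's moderated test gave an adjusted p under 0.05 (Benjamini-Hochberg, over all 11164 genes tested) and a fold change of at least 1.5. Of all genes tested, 4.06% were called, 241 higher and 212 lower in Zeus KO, and 2107 had an unadjusted p under 0.05. Without control library C the number of called genes fell from 453 to 296.

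None of the 9 genes was called by limma, against 4.06% of all genes tested. An unadjusted p under 0.05 was found for 0 of the 9, against 2107 of all 11164 genes tested. Their log2 differences (Zeus KO minus control) ran from -0.23 for spi to 0.21 for aos, with a median of -0.03 beside 0.0031 over all genes tested. By sign, 4 were higher and 5 lower, and with each library centred on its median 3 of the 4, tj, Egfr and rl, turned to slightly below 0. For 7 of the 9, the 95% interval of the difference lay inside the 1.5-fold limit in both directions. For stet and aos, the 2 genes with the fewest reads, it reached past that limit. Among the 7, the interval of Egfr came closest to the limit, with an upper end of 1.49-fold. The Egfr difference ran from -0.30 to 0.22 when single libraries were left out. The groups overlapped in 8 of the 9 genes, and the exception was spi, lower in Zeus KO. Over all genes tested, every Zeus KO library lay below every control library in 11.6%, and above in 11.8%.

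**Figure D1:**
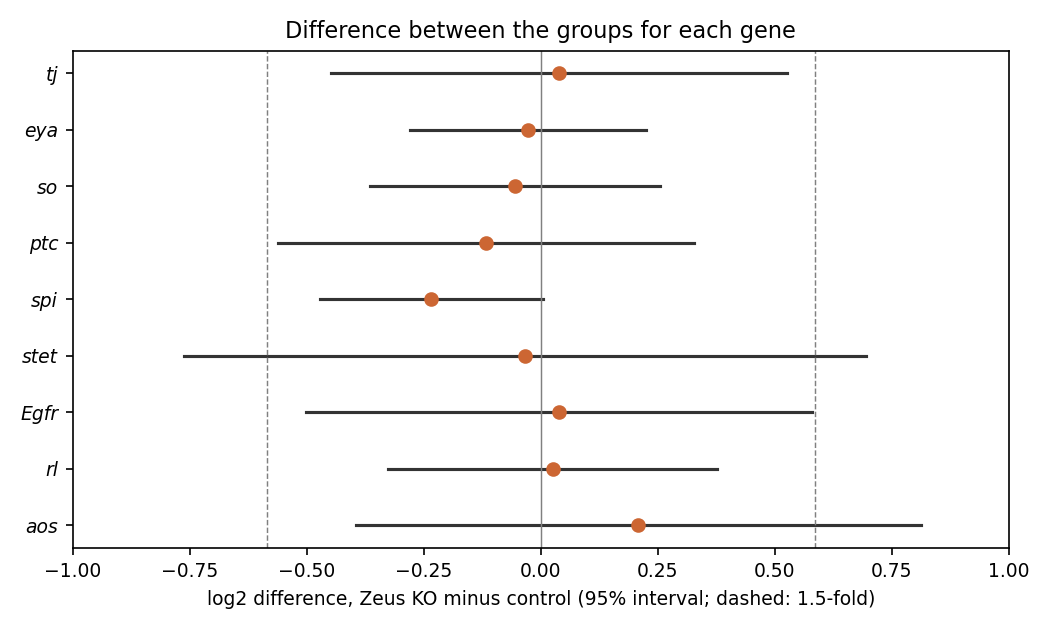
Difference between Zeus KO and control for each of the 9 genes. The x axis is the log2 difference (Zeus KO minus control, on log2(normalized reads + 1)), points are limma's estimates, bars are 95% intervals, and dashed lines mark a fold change of 1.5. The bars of stet and aos cross a dashed line, and every bar crosses 0.

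The order of the levels was the same in both groups when set per length of exon. The length counts every annotated exon of a gene, and which transcripts the testis uses was not measured, so the order between genes depends on this choice. In control, spi stood highest at 415 ± 24.0 normalized reads per kb of exon (SD, n = 3), followed by eya at 173 ± 16.8 and so at 91.4 ± 8.62. The next were ptc at 48.4 ± 8.21, Egfr at 33.4 ± 11.9, rl at 22.5 ± 3.67 and tj at 15.4 ± 3.01. The antagonist aos, at 8.06 ± 1.55, and the protease stet, at 7.75 ± 2.11, stood lowest. The libraries of neighbours in this order were apart, with 3 exceptions. Because their libraries overlapped, aos and stet could not be ordered in either group, Egfr and rl not in control, and ptc and Egfr not in Zeus KO. Among 11401 genes with a length, the level of spi lay above 67.1% of genes and that of eya above 49.9%, while that of tj lay above 9.78%. RNA of whole testes mixes germ cells, cyst cells and the sheath. In such RNA, fewer cells of a type and less RNA per cell cannot be told apart.

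**Figure D2:**
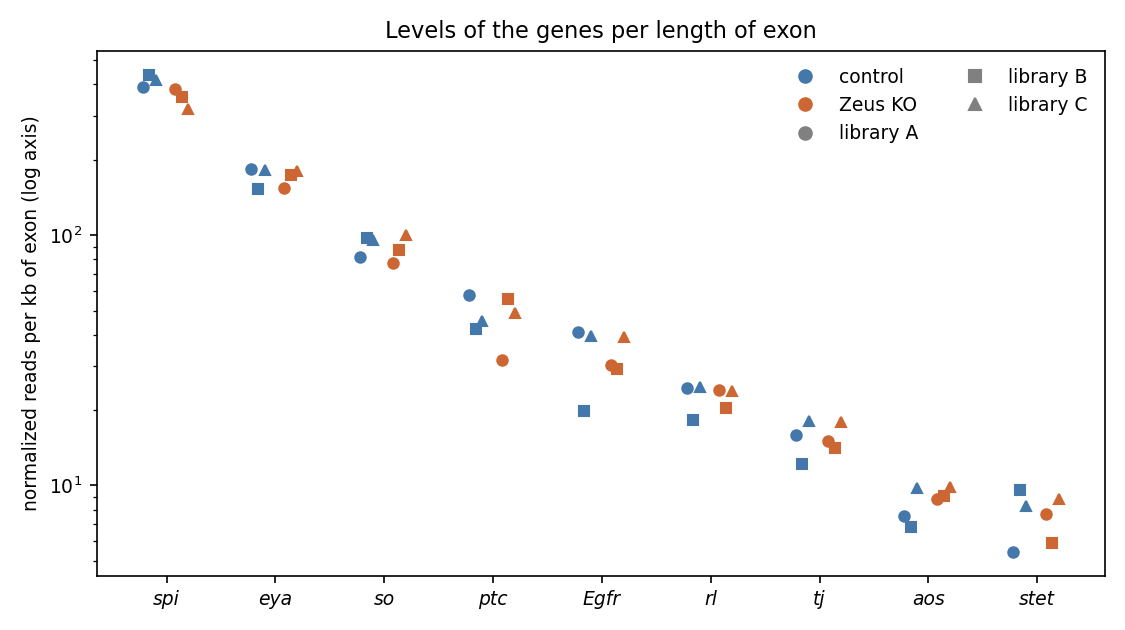
Level of each gene per length. The y axis is normalized reads per kb of exon on a log axis, colours are the groups and marker shapes are the libraries A, B and C of each group. The order from spi to stet was the same in control and Zeus KO, and the libraries of aos and stet overlap.

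The cyst cell regulators were measured first. The gene tj (FBgn0000964; 2L, from 19464267 to 19467758, plus strand, dm6) encodes the large Maf transcription factor Traffic jam of cyst stem cells and early cyst cells. It lies in 1 exon block of 3492 bases. It held 55.4, 42.4 and 63.2 normalized reads in control libraries A, B and C and 52.4, 49.3 and 62.5 in Zeus KO libraries A, B and C. Control library B was the lowest of the 6, and the range of Zeus KO lay within that of control. The log2 difference was 0.04 (standard error 0.222, 95% interval -0.45 to 0.53, adjusted p = 0.949 by limma). These values rest on between 33 and 59 whole reads per library.

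The gene eya (FBgn0000320; 2L, from 6527447 to 6546976, minus strand) encodes Eyes absent, a transcriptional co-activator and phosphatase that marks later cyst cells. It held 676, 566 and 671 normalized reads in control, against 569, 643 and 663 in Zeus KO. Control library B and Zeus KO library A were low and the other 4 libraries were within 643 to 676, so the groups overlapped. Its log2 difference of -0.03 had a 95% interval of -0.28 to 0.23, or 0.824-fold to 1.17-fold (adjusted p = 0.927 by limma).

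The gene so (FBgn0003460; 2R, from 7419350 to 7434872, plus strand) encodes Sine oculis, the homeodomain partner of Eya. It held 227, 271 and 266 normalized reads in control, against 216, 242 and 279 in Zeus KO. Here library A was the lowest of each group. The log2 difference was -0.05 (95% interval -0.36 to 0.25, adjusted p = 0.873 by limma). The ratio of so to eya reads, which is not corrected for length, was 0.403 ± 0.0715 in control and 0.392 ± 0.0248 in Zeus KO (SD, n = 3), a difference smaller than the spread within control.

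The gene ptc (FBgn0003892; 2R, from 8649649 to 8665223, plus strand) encodes Patched, the Hedgehog receptor, and is itself a target of the pathway. It held 319, 232 and 251 normalized reads in control, against 175, 307 and 271 in Zeus KO. The lowest and the second highest library were both Zeus KO, and the spread within that group was 1.76-fold. The log2 difference was -0.12 (95% interval -0.56 to 0.33, adjusted p = 0.800 by limma), and without Zeus KO library A it was 0.12.

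The ligand and its protease were taken next. The gene spi (FBgn0005672; 2L, from 19567900 to 19577315, minus strand) encodes Spitz, the EGF-like ligand that germ cells use to signal to cyst cells. It held 709, 796 and 755 normalized reads in control, against 696, 646 and 582 in Zeus KO. All 3 Zeus KO libraries lay below all 3 control libraries, by a gap from 709 down to 696. The means were 753 ± 43.7 in control and 641 ± 57.2 in Zeus KO (SD, n = 3). The log2 difference of -0.23 (standard error 0.109, 95% interval -0.47 to 0.0038) did not pass limma's test (adjusted p = 0.272). Among the 9 genes, 1 had every Zeus KO library below every control library and 0 had every one above. Over all genes tested, these shares were 11.6% below and 11.8% above. The sign stayed negative in all 16 alternatives tried, from -0.30 to -0.17, and spi was called in none of the 15 of them that had a test.

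The gene stet (FBgn0020248; 3L, from 1475438 to 1489547, minus strand) encodes Stem cell tumor, a rhomboid-family protease that is needed in germ cells for the signal to cyst cells. It held 13.9, 24.4 and 21.1 normalized reads in control, against 19.5, 15.0 and 22.6 in Zeus KO, from between 13 and 22 whole reads per library. The highest and the lowest library were both control. The log2 difference was -0.03, with a 95% interval of -0.76 to 0.69, or 0.589-fold to 1.62-fold, which holds changes of 1.5-fold in both directions.

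Receptor, kinase and antagonist followed. The gene Egfr (FBgn0003731; 2R, from 21522420 to 21559977, plus strand) encodes the receptor, which cyst cells need for the response. It held 285, 137 and 275 normalized reads in control, against 210.4, 204 and 272 in Zeus KO. Control library A held 2.07 times as many as control library B, the widest spread within a group among the 9 genes, and all 3 Zeus KO libraries fell inside the control range. The log2 difference of 0.04 (95% interval -0.50 to 0.58, adjusted p = 0.955 by limma) turned to -0.30 without control library B (adjusted p = 0.444).

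The gene rl (FBgn0003256; 2R, from 1071462 to 1125927, plus strand) encodes Rolled, the ERK-type MAP kinase at the end of the cascade. It held 185, 139 and 188 normalized reads in control, against 182, 155 and 181 in Zeus KO. Library B was the lowest of each group. The log2 difference was 0.03 (95% interval -0.33 to 0.38, adjusted p = 0.953 by limma).

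The gene aos (FBgn0004569; 3L, from 16470386 to 16483650, minus strand) encodes Argos, a secreted antagonist that binds Spitz and is induced by the pathway in many tissues. It held 21.3, 19.3 and 27.6 normalized reads in control, against 24.9, 25.7 and 27.9 in Zeus KO, from between 15 and 28 whole reads per library. Control library C was above Zeus KO libraries A and B, so the groups overlapped. The log2 difference was 0.21 (95% interval -0.40 to 0.81, adjusted p = 0.733 by limma), and it stayed positive in all 16 alternatives.

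**Figure D3:**
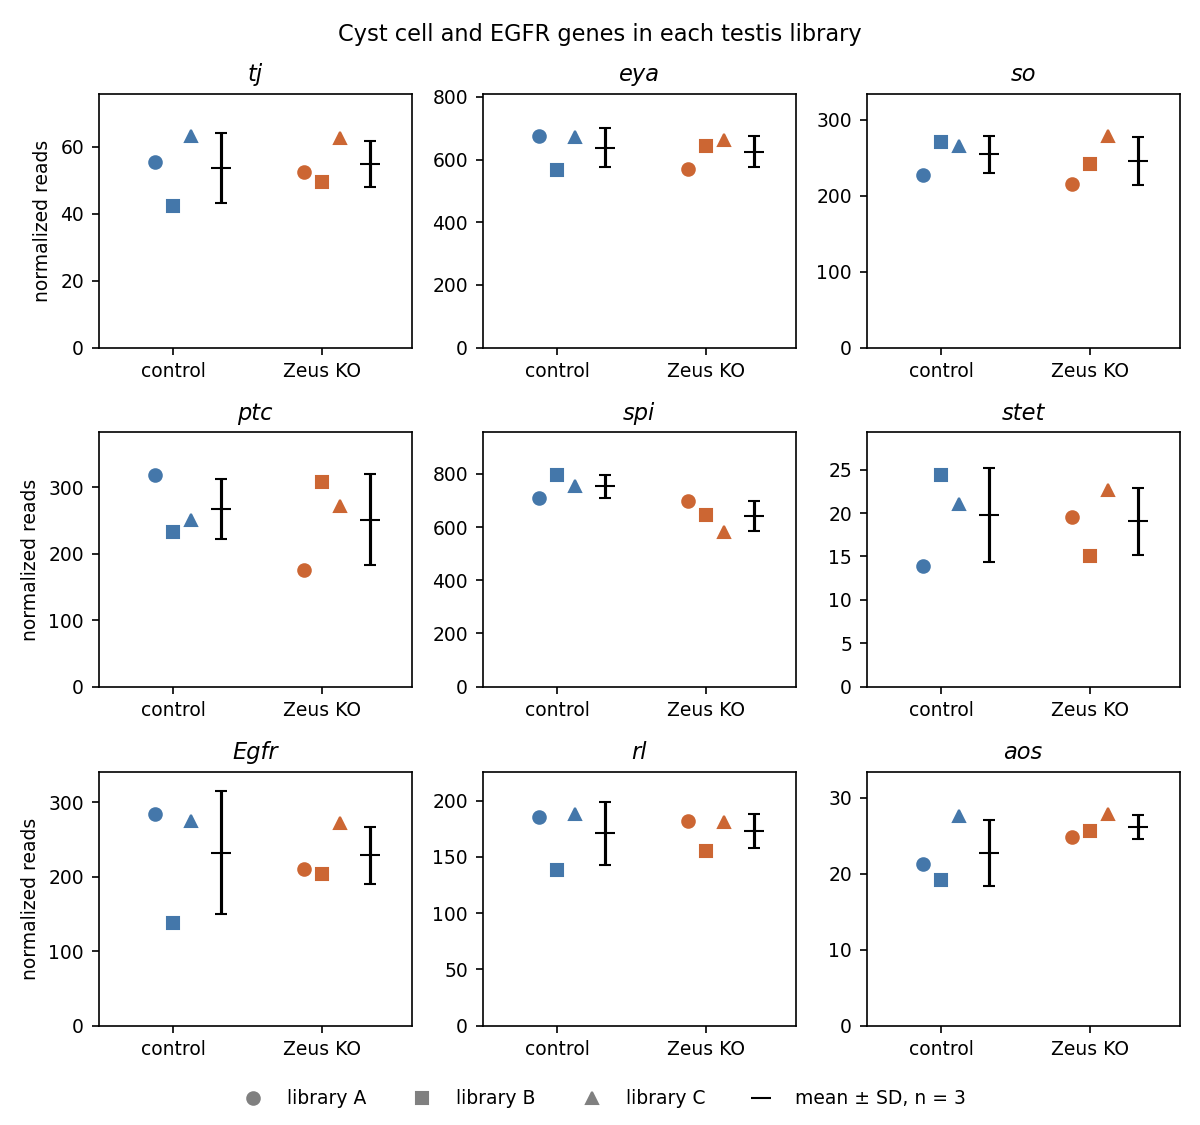
Normalized reads of the 9 genes in each library. Each panel has its own y axis from 0, marker shapes are the libraries A, B and C of each group, and the bars are means with SD (n = 3 per group). The groups overlap in every panel but that of spi, where the 3 Zeus KO libraries lie below 709, the lowest control value. Over all genes tested, the groups were apart in this direction in 11.6% and in the other in 11.8%.

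The 9 genes differed in which library was low. In control, library B was the lowest for 6 genes, tj, eya, ptc, Egfr, rl and aos, and the highest for the other 3, so, spi and stet. In Zeus KO, library C was the highest for 6 genes, and libraries A and B were the lowest for 4 genes each. Over all genes, libraries of a group differed by the length of the exons. When genes were put into 10 equal classes by exon length, the longest class (median 7.32 kb) gave the following values. There the median log2 deviation from the group's mean was 0.22 in control library A, -0.23 in control library B and 0.01 in control library C. For Zeus KO libraries A, B and C it was -0.23, 0.11 and 0.13. For the class with the shortest exons (median 0.577 kb), it was -0.18, 0.18 and 0.0094 in control, and 0.22, -0.11 and -0.10 in Zeus KO. Thus long genes were low in control library B and Zeus KO library A against the other libraries of their groups. Deviations from a group's own mean say nothing of a length trend between the groups.

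Egfr, with 6.95 kb of exon, deviated by 0.36 in control library A and by -0.68 in control library B, more than the median of the longest class in both. With 5.52 kb of exon, ptc deviated by -0.48 in Zeus KO library A. The shortest of the 9, spi with 1.82 kb, deviated by -0.09, 0.08 and 0.0055 in control. The part of exon length in the spread of Egfr and ptc was not tested. When control library B and Zeus KO library A were left out together, a choice made after the data were seen, 453 genes were called and again none of the 9, and the log2 difference was -0.25 for both spi and Egfr (adjusted p = 0.220 and 0.425 by limma).

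**Figure D4:**
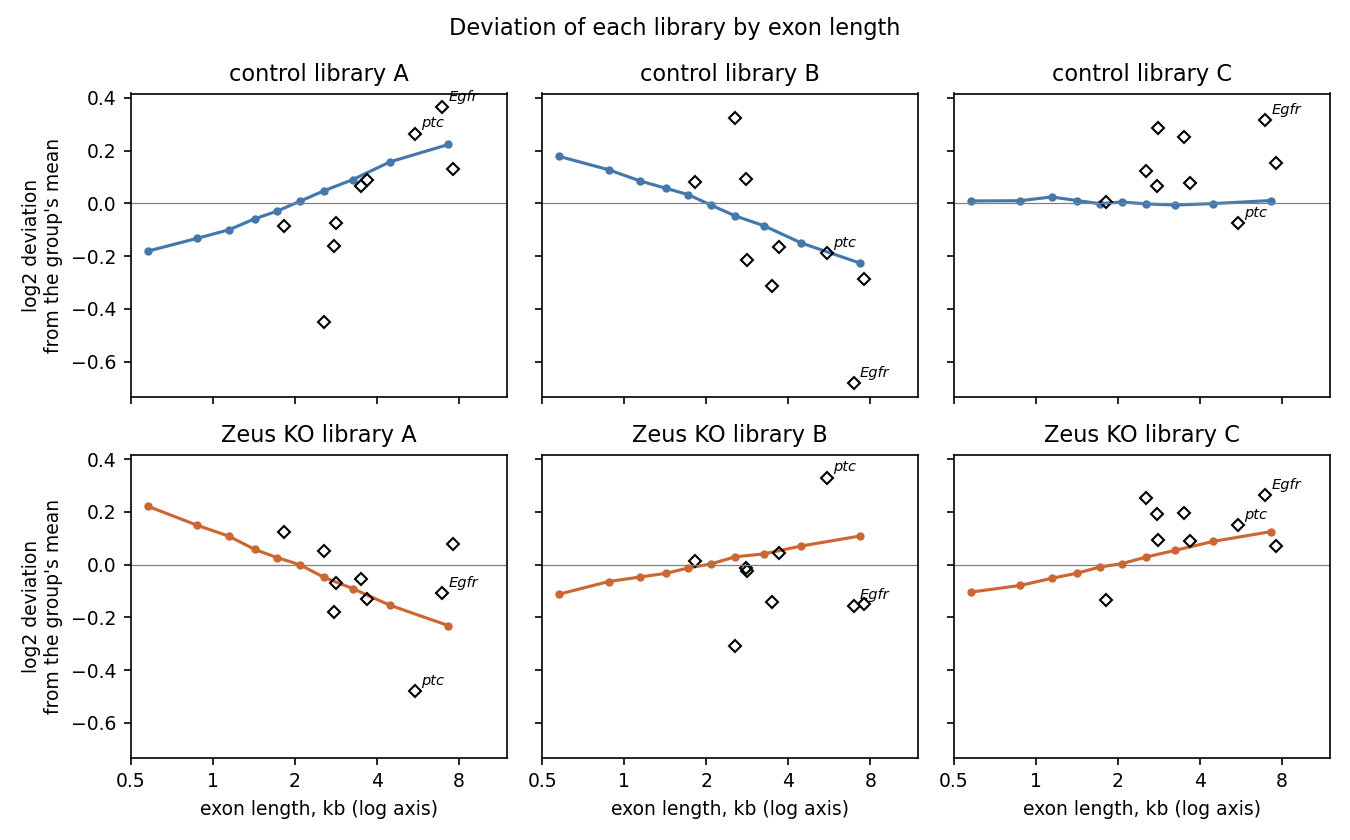
Deviation of each library from its group's mean by exon length. The x axis is the exon length in kb (log axis) and the y axis the log2 deviation from the mean of the 3 libraries of the group. Lines join the medians of 10 classes of genes by length, and open diamonds are the 9 genes. The line falls with length in control library B, where Egfr lies at -0.68, and in Zeus KO library A, and is flat in control library C.

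The wider EGFR pathway was described from a list of 31 genes, of which 29 were tested. None of the 29 was called by limma, beside 4.06% of all genes tested. An unadjusted p under 0.05 was found for 2 of them, beside 2107 of all 11164 genes tested. The median log2 difference was 0.04, beside 0.0031 over all genes tested. Among the ligands, Keren (Krn), a second Spitz-like ligand, had means of 323 normalized reads in control and of 296 in Zeus KO, a log2 difference of -0.12. The neuregulin-like vein (vn) and the germline ligand gurken (grk) had log2 differences of 0.17 and 0.28. The ratio of spi to Krn was 2.34 ± 0.0682 in control and 2.16 ± 0.0235 in Zeus KO (SD, n = 3). Single libraries lay at 2.28 to 2.41 in control and at 2.14 to 2.18 in Zeus KO. This ratio uses the spi values already given, so it is not a separate result, and its difference was not tested.

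Among the processing genes, Star (S), which carries Spitz out of the endoplasmic reticulum, was the most abundant, and its group means were 694 (control) and 757 (Zeus KO) normalized reads. The gene rho, the first rhomboid protease described, was picked after its values were seen. It held 55.4, 73.2 and 100.03 normalized reads in control, against 49.7, 56.8 and 37.2 in Zeus KO. Control library A lay below Zeus KO library B, so the groups overlapped. Its log2 difference of -0.64 was the largest of the list in size (95% interval -1.20 to -0.08, adjusted p = 0.205 by limma).

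Of the inhibitors, sty, which encodes the intracellular Ras pathway inhibitor Sprouty, held 230.2, 190.0 and 212 normalized reads in control, against 268, 313 and 272 in Zeus KO. It too was picked after its values were seen. All 3 Zeus KO libraries lay above the control libraries, as they did in 11.8% of all genes tested, and the log2 difference of 0.43 (95% interval 0.14 to 0.72) missed the limit (adjusted p = 0.0988 by limma). The transmembrane inhibitor kek1 had a log2 difference of 0.24 and the ubiquitin ligase Cbl, the most abundant of the 4, one of -0.09.

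The 12 adaptors and kinases tested lay between -0.12 and 0.24, and the adaptor drk, the most abundant, averaged 1016 (control) and 1053 (Zeus KO) normalized reads. Among nuclear effectors, the ETS activator pnt had a log2 difference of 0.10, the ETS repressor aop 0.07, and the repressor cic, the most abundant of this group, 0.17.

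Cyst cell markers were used to check for the presence of these cells. All 7 genes listed as cyst cell markers, Socs36E among them, were measured in every library. None was called, beside 4.06% of all genes tested, a share at which a list this short would often hold no call. The list includes tj, eya, so and ptc, whose values are those already given, so for them this is not a separate check. Only zfh1, chinmo and Socs36E add new values. By sign 2 of the 7 were higher and 5 lower, with a median log2 difference of -0.03. Of the 5, zfh1 lay at -0.0049 and Socs36E at -0.037, and the signs of eya, so and ptc turned under some alternatives. So did the sign of tj, which was among the 2 higher. The BTB factor chinmo of cyst stem cells averaged 2134 (control) and 2434 (Zeus KO) normalized reads. For the stem cell factor zfh1 the means were 343 and 346. Summed over the 7 genes, the control libraries lay at 3592 to 4285 normalized reads, and the Zeus KO libraries at 3749.7 to 4450.3, and chinmo was the largest part of this sum. These markers are not exclusive to cyst cells, since several also act in other tissues. The 10 genes of cyst cell junctions and polarity, among them the septate junction genes cora and Nrx-IV, lay between -0.18 and 0.23 with a median of 0.06. None of these was called, again beside 4.06% of all genes tested. The most abundant of them, the polarity gene scrib, averaged 1886 (control) and 2149.9 (Zeus KO) normalized reads.

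Of the Hedgehog pathway, 11 genes were tested and 0 called, beside 4.06% of all genes tested. Their median log2 difference was 0.12. The ligand hh had a difference of -0.11, the transducer smo 0.19 and the transcription factor ci 0.22. Su(fu), which restrains Ci and was the most abundant of the list, was above control in every Zeus KO library, at 382, 378 and 371 normalized reads against 330.4, 321 and 330.3, with a log2 difference of 0.20 (95% interval -0.03 to 0.44, adjusted p = 0.341 by limma). It was the 1 gene of the 11 with every Zeus KO library above control, beside 11.8% of all genes tested. Of the retinal determination network, in which eya and so act together in the eye, 6 of 8 genes were tested and none was called. Their median log2 difference was -0.09, and the signs of eya and so among them turned when single libraries were left out. The most abundant of them, Optix, a relative of so, held 1073 and 1025 normalized reads on average.

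**Figure D5:**
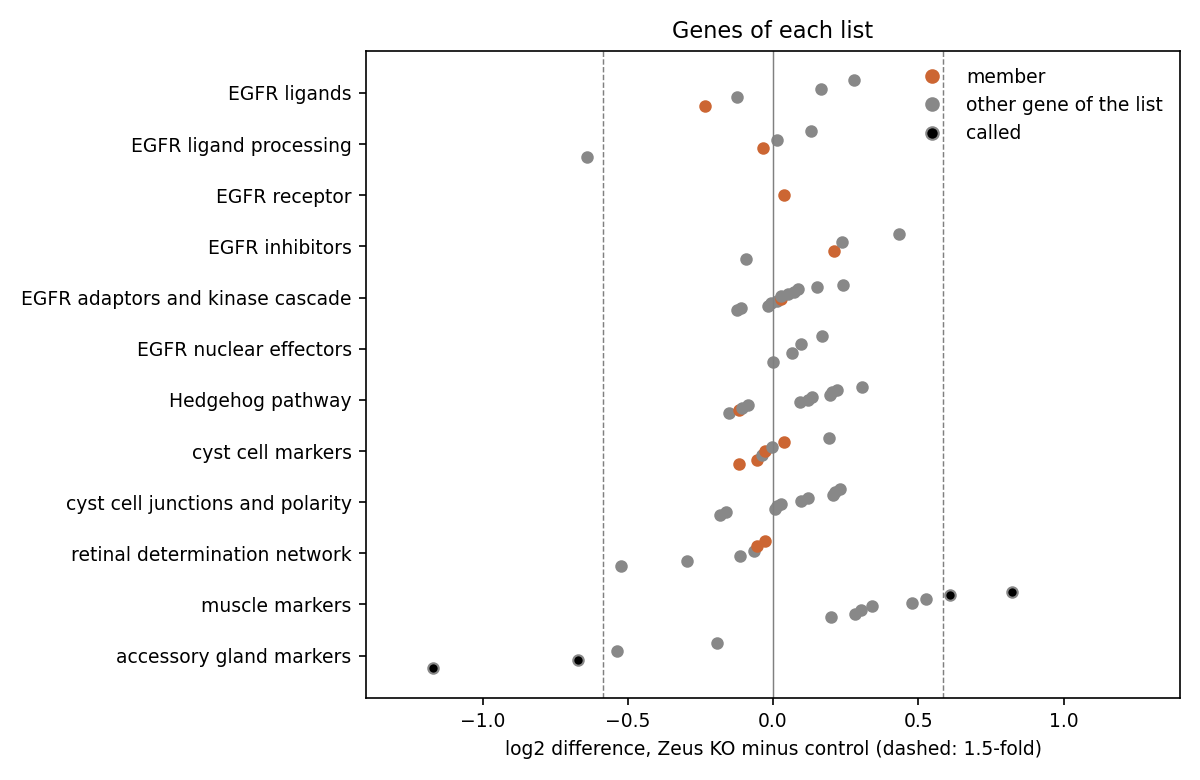
Log2 difference (Zeus KO minus control) of every tested gene of the EGFR, Hedgehog, cyst cell, retinal, muscle and accessory gland lists. Orange points are the 9 genes, grey points the other genes of a list, points with a black centre passed the call, and dashed lines mark a fold change of 1.5. No point of the EGFR, Hedgehog, cyst cell or retinal lists has a black centre, while 2 muscle markers and 2 accessory gland markers do. Fat body markers, of which 2 were called, and the other marker lists are not plotted.

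Markers of other cells of the preparation moved in part. Over all genes tested, 4.06% were called. Among 8 muscle markers, 2 were called higher, Mhc and up, which encode myosin heavy chain and troponin T. All 8 were higher by sign, and 6 had every Zeus KO library above every control library, beside 11.8% of all genes tested. An unadjusted p under 0.05 was found for 7 by limma, beside 2107 of 11164 genes. The list summed to 11765 to 15338 normalized reads in control libraries against 17016 to 19172 in Zeus KO libraries. Of 8 accessory gland markers, only 4 had solved libraries and were tested, and 2 of these were called lower, Acp62F and Acp76A. The 4 tested summed to 20919 to 26725 against 13272 to 20297, a sum that leaves out the rest of the list. Of 3 fat body markers tested, Lsp2 was called higher and apolpp lower, and the list summed to 3866 to 5389.5 against 2556 to 3307. The calls of up, Acp76A and apolpp held in all 15 alternatives with a test. Those of Mhc and Acp62F held in 7 of the 15 and that of Lsp2 in 9. All 3 of these were lost without control library B or C and without Zeus KO library B or C (adjusted p from 0.0764 to 0.209 by limma), and the remaining losses came under settings that kept all 6 libraries. None of the 4 hub, 8 early germline, 8 spermatocyte, 4 spermatid and 3 hemocyte markers tested was called. The spermatid list holds 8 genes, of which only those 4 were tested. Of the early germline markers, 3 were higher and 5 lower by sign. In 2 of them, zpg and vas, every Zeus KO library lay below every control library, beside 11.6% of all genes tested. For zpg the log2 difference was -0.59 (adjusted p = 0.151 by limma). Of the spermatocyte markers, 4 were higher and 4 lower. Among them mia lay lower in every Zeus KO library (-0.32, adjusted p = 0.165 by limma). No tested marker of these lists was at 0. The part of these tissues in the levels of spi, Egfr or ptc, which other tissues also express, was not tested.

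The genes most like tj and eya across the 6 libraries were sought among the other 10958 genes with a mean of at least 10 normalized reads. For tj, the highest Pearson correlations of log2 values were those of gammaCOP (0.994), MESR3 (0.980) and Syn (0.970). For eya they were those of Mmp1 (0.998), mon2 (0.996) and CG42748 (0.994). Among the 9 genes, Egfr was the most like both, at 0.928 with tj and 0.842 with eya. These are descriptions over 6 points, in which all genes share the libraries and the deviation by exon length. In Mmp1, control library B at 467 and Zeus KO library A at 474 normalized reads were the lowest, the same libraries that were lowest for eya.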

How the data were processed

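RNA was measured in 6 libraries of whole testis, 3 per group. Per the paper's methods, the authors used STAR with its default settings to map reads to dm6, then featureCounts for reads per gene. Versions, the annotation release and the use of strand are not given in the sources used here, and DESeq2, edgeR and limma are named in the submitters' processing notes. The deposited signal is the group mean of reads divided by size factors, and gene length was not corrected for. The deposited log2 fold changes, p-values and calls of the authors' own comparison were not used, nor was their mean over all libraries. The deposited FastQC summary holds a count of sequenced reads per library, used as a range, and percent values of duplication that were not used.

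A group mean is a sum of whole reads with a fixed weight per library. The 3 weights were read from the lowest values and refined, and whole reads were searched for means up to 8000. This gave 1 solution in both groups for 11178 genes (97.3%). The 313 others all have a mean above that limit and hold 36.2% of normalized reads. The search was tested on data with known answers.

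The test was limma 3.58.1 (R 4.3.3) with a trend on log2(normalized reads + 1) on the genes whose mean was 1 or more, tested on simulated data. Fold changes are on that scale, which understates low genes. The design named this test, with limits taken from the study. Intervals are 95%. Exon lengths and positions come from Ensembl release 115, in dm6 coordinates, where 90 genes of the table have no entry. In that annotation no exon of another gene on either strand shares bases with an exon of the 9 genes. The members, the lists and the rule for named genes (the 9 genes, Zeus and Caf40, called genes and the most abundant gene of each list, and the 3 genes most like tj and eya) were chosen with earlier results of these data known. Further list genes mentioned in the text were picked after their values were seen. Alternatives changed the pseudocount, filter, scaling, trend, test and libraries.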

Additional observations from a re-analysis of the deposited data

How the results depend on the processing

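Under every alternative tried, none of the 9 genes and none of the 60 tested genes of the EGFR, Hedgehog, cyst cell and retinal lists was called. In the main test, 4.06% of all genes tested were called. No paired analysis was possible because the solved libraries carry no replicate number. Signs of spi, at -0.23, and aos, at 0.21, held throughout. Those of the other genes, all near 0, turned in 26 of the 144 pairs of a gene (all 9 counted) and an alternative, and the cause was not tested. With each library centred on its median, tj was -0.00087, Egfr -0.0012 and rl -0.014. From the authors' group means, Egfr was -0.022. Without control library B and Zeus KO library A, tj was -0.091, so 0.081, ptc 0.028, stet 0.10, Egfr -0.25, rl -0.16 and Caf40 (Rcd-1) 0.049.

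Leaving out 1 library at a time gave log2 differences from -0.12 to 0.16 for tj, -0.11 to 0.038 for eya, -0.15 to 0.034 for so, -0.28 to 0.12 for ptc, -0.30 to -0.17 for spi, -0.26 to 0.13 for stet, -0.30 to 0.22 for Egfr, -0.12 to 0.10 for rl, 0.10 to 0.35 for aos and -0.13 to 0.0011 for Caf40. The number of called genes was between 296 without control library C and 555 without control library A, against 453, and 563 with no limit on the fold change. It lay between 427 and 465 under the other settings that kept all 6 libraries. Depth limits stet and aos most, with at most 28 reads in a library. The 313 genes with no solved libraries were not tested.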
